A study of Mus musculus with 61 samples.

Results

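The experiment described here put the STAT5B mutant N642H into mouse CD4+ T cells that keep their own Stat5a and Stat5b genes. Its members are the libraries titled WT_CD4_Stat5b_N642H, replicates 1 to 3, and the libraries titled WT_CD4, replicates 1 to 3, which carry the empty vector. They were taken by title alone and make 6 of the 61 libraries of the series. The study measured by RNA-seq how leukaemia-associated changes in the SH2 domain of STAT5B alter gene expression in mouse lymphoid cells and spleen. Its CD4+ T cells came as WT or Stat5a/b-null cells, each with 1 of 5 retroviral vectors and 3 libraries per vector and background. The vectors were empty or encoded STAT5B, N642H, Y665F or Y665H. The question asked of the 6 libraries is which transcripts differ when N642H is added to cells with endogenous STAT5.

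Both groups came from C57BL/6 mice at the age of 2 months. Per the study's methods, lymph nodes and spleens were pooled, and naive CD4+CD44lowCD25- cells were sorted. These were activated with antibodies to the T cell receptor and CD28, transduced, and kept with IL-2 for 48 h. Live CD4+GFP+ cells were then sorted, so both groups carry a vector and the GFP marker. The groups differ in the insert, which was STAT5B N642H in one and absent in the other. The genotype entry of the labels reads Stat5a/b flox/flox for all 30 CD4+ libraries, those titled WT included, so titles and paper decided which background a library has. In the null cells Cd4-Cre had removed both genes. A figure legend of the study speaks of independent biological replicates for the CD4+ data without saying what makes them so. Nothing in the labels says that the 3 libraries of a group come from separate animals, so the p-values measure only the spread between samples.

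The libraries held 34374628, 47040687 and 44897807 reads on genes with the empty vector and 18825994, 34807288 and 48951215 with N642H. N642H replicate 1 was the shallowest of the 15 WT libraries. Levels are given in CPM, the usual scale on which the reads of a gene are divided by those of its library, after TMM correction. Between 28.8% and 34.7% of the counts in the 6 files stood under no gene and were left out, most of them for reads without a unique alignment (17% to 18.6%) or outside the annotated genes (8.67% to 14.4%).

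STAT5A and STAT5B are transcription factors that wait in the cytoplasm and are phosphorylated by JAK kinases when a cytokine such as IL-2 or IL-7 binds its receptor. The phosphorylated proteins pair through their SH2 domains, enter the nucleus and bind DNA, and among their known targets are Socs2 and Cish, whose products dampen the same pathway. In T cells the pathway is known for its part in growth, survival and the choice of helper and regulatory fates, and N642H is known as an activating mutation of T cell and natural killer cell leukaemias.

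The libraries were first checked against the label. The 12 T cell markers summed to 5440, 6650 and 4930 CPM with the empty vector and to 4480, 5060 and 4980 CPM with N642H, and Thy1 was the most abundant of them. Cd4 lay between 621 and 982 CPM in the 6 libraries. Cd8a, which a CD8 T cell must express, was at or under 0.219 CPM in all 6, while Cd8b1 lay between 5.89 and 7.45 CPM. The 10 B cell markers summed to between 2.45 and 5.57 CPM, with Ebf1 as the most abundant gene. The 10 myeloid markers summed to between 1.29 and 3.2 CPM, the 7 neutrophil markers in the files to at most 0.783 CPM, and the 6 natural killer markers to at most 0.765 CPM, with Klra8 and Klra4 at 0. The 4 haemoglobin genes of the erythroid list were at 0. No marker of these lists passed the test between the groups without the replicate block. With the block Ebf1 rose by 1.00 on the log2 scale (edgeR, BH-adjusted p = 0.00424), from 1.73, 1.09 and 1.26 CPM to 4.07, 2.1 and 2.25 CPM. With the block Itgam fell by 1.56 (edgeR, BH-adjusted p = 0.0314), and its levels stayed at or under 1.39 CPM. Without the block the log2 fold changes were 1.03 for Ebf1 (edgeR, BH-adjusted p = 0.326) and -1.51 for Itgam (edgeR, BH-adjusted p = 0.357).

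Replicate numbers tied the libraries together. Over 11338 genes, the deviations from the group means correlated at 0.62, 0.46 and 0.65 between the N642H and empty-vector libraries with the same number, against -0.66 to 0.31 in the 6 pairs with different numbers. These are correlations across genes, which are not independent replicates. All 30 pairs of WT libraries with the same number exceeded 0.1, the value set for treating the numbers as pairs, and ran from 0.11 to 0.86. Pairs with different numbers over the same 15 libraries ran from -0.72 to 0.57, so the ranges overlap and some of these exceed 0.1 too. Replicate 3 of every vector stood apart on the first component, at -43 for the empty vector and -12.9 for N642H, where replicates 1 and 2 were at -5.58 and -13.5 and at 38.5 and 28. Results are therefore given without the number and, wherever that alters a call, with the number as a block.

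**Figure D1:**
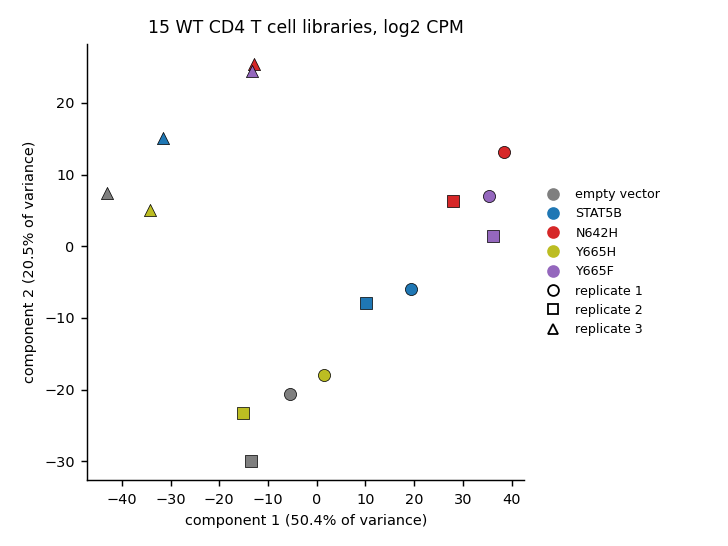
Principal components of log2 CPM in the 15 WT libraries, with component 1 (50.4% of the variance) against component 2 (20.5%), both without units. Colour marks the vector and the marker shape the replicate number, and within each vector replicate 3 lies at the lowest value of component 1.

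N642H changed the level of 202 genes against the empty vector, and 162 of them rose. The rises were led by genes that were almost silent with the empty vector, such as H19, Il9, Oxtr and Myh11. The largest fall was that of Pydc3, an interferon-inducible gene, and Sytl2, Rasgrp2 and the integrin gene Itgb3 were among the other falls. Of 20509 genes tested with edgeR, 0.790% rose and 0.195% fell where calls needed a BH-adjusted p under 0.05 and more than 1 log2 unit of change. With the replicate block, 410 genes rose (2.00%) and 122 fell (0.595%), and all 202 were among them. The median log2 fold change over all genes tested was -0.04. In all 202 the 3 N642H libraries lay on one side of the 3 empty-vector libraries, which also holds for 1492 genes above and 1638 below among the 20509 tested (chance gives 10% for 3 against 3). The 202 were called from the same 6 libraries, so the choice itself favours this absence of overlap. Of the 202, 177 had a mean of at least 1 CPM. The count moved to 101 without empty-vector replicate 1, 70 without empty-vector replicate 2, 77 without N642H replicate 1, 104 without N642H replicate 2 and 350 without N642H replicate 3. Without replicate 1 of all vectors it was 1, without replicate 2 of all vectors 0 (edgeR, with 1095 genes at an unadjusted p under 0.05), and without replicate 3 of all vectors 567.

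Stat5b is the gene the vector carries, and its transcript count joins the endogenous and the vector copy. It stood at 185, 199 and 203 CPM with the empty vector, a mean of 196 ± 9.23 (SD, n = 3), and at 410, 437 and 434 CPM with N642H, a mean of 427 ± 14.8 (SD, n = 3). The groups do not overlap and each is tight. The log2 fold change was 1.13 ± 0.14 (SE; edgeR, BH-adjusted p = 0.000759), and an exact permutation test, two-sided, had p = 0.1, the smallest that 3 against 3 can give. With STAT5B the transcript stood at 402, 502 and 546 CPM and with Y665F at 395, 359 and 471 CPM, so the 3 constructs overlap in level. Stat5a, which the vector does not carry, had means of 154 ± 16.9 CPM with the empty vector and 149 ± 17.4 CPM with N642H (SD, n = 3), with an exact two-sided permutation p of 0.7. Its log2 fold change was -0.04. On the scale of the 30 CD4+ libraries, Stat5b was at 187, 209 and 207 CPM in WT cells with the empty vector and at 2.78, 5.3 and 9.49 CPM in null cells with it, while null cells with N642H, at 209, 255 and 186 CPM, overlap the former. Stat5a separates all 30 libraries by title, with 99.5 to 179 CPM in those titled WT and 1.7 to 14.9 CPM in the null ones.

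The codons that the constructs alter show where in Stat5b the mutation sits. The RefSeq gene record in GRCm38.p6 places Stat5b at chr11:100780731-100859004. In the GENCODE M21 annotation of GRCm38, Stat5b lies on the minus strand of chromosome 11. There the altered codons lie in exon 16 of 19 of its longest protein-coding transcript, which has 786 codons before the stop. Both stretches are the unmutated transcript as that annotation gives it, 5′ to 3′, with the codon in capitals. The first covers coding bases 1894 to 1956, with its codon at chr11:100787360-100787362, and the second coding bases 1963 to 2025, with its codon at chr11:100787291-100787293.
Codon altered in N642H: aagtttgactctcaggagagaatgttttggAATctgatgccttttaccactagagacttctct
Codon altered in Y665F and Y665H: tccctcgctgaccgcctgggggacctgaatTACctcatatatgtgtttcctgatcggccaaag
The first codon encodes asparagine and the second tyrosine.

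Among the 7 genes the study names for these constructs, Stat5b, Lta and Irf8 rose and the other 4 did not pass the test. The study names several of them as known STAT5 targets and shows their levels for these constructs, and Stat5b is the insert. It describes the induction of Socs2, Cish, Lta, Irf8 and Il2ra in Stat5a/b-null cells. CD98, the protein to which Slc3a2 belongs, it measured at the cell surface. The test here is of RNA in WT cells, so a missing call does not contradict the study. Their count is therefore not independent evidence of a direction. Lta encodes lymphotoxin alpha, a secreted cytokine of the TNF family. Its level was 221, 219 and 107 CPM with the empty vector and 1036, 800 and 393 CPM with N642H. All N642H libraries lie above all empty-vector libraries, and replicate 3 is the lowest of each group. The log2 fold change was 2.03 ± 0.46 (SE; edgeR, BH-adjusted p = 0.0386; 1.6e-10 with the block). Irf8 encodes a transcription factor of the interferon regulatory family. It was at 55.3, 38.3 and 17.2 CPM with the empty vector and at 308, 126 and 92.1 CPM with N642H. The groups do not overlap and replicate 1 is the highest in both. The log2 fold change was 2.24 ± 0.54 (SE; edgeR, BH-adjusted p = 0.0496; 5.88e-09 with the block). Both genes lost the call when any library other than N642H replicate 3 was left out, with a BH-adjusted p from edgeR of up to 0.215 for Lta and 0.354 for Irf8. Irf8 also lost its call with RLE factors, with filterByExpr and with the compared groups alone.

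The feedback inhibitors Socs2 and Cish were already high in WT cells with the empty vector. Socs2 was at 297, 319 and 193 CPM with the empty vector and at 421, 471 and 376 CPM with N642H. All N642H values are higher, but the log2 fold change of 0.65 ± 0.23 (SE) did not pass (edgeR, BH-adjusted p = 0.238). With the block the adjusted p was 9.18e-05 and the fold change of 0.68 stayed under the minimum. Cish was at 362, 499 and 292 CPM with the empty vector and at 458, 511 and 403 CPM with N642H, and the groups overlap (log2 fold change 0.25; edgeR, BH-adjusted p = 0.809). Il2ra encodes the alpha chain of the IL-2 receptor. It was at 1846, 1929 and 1240 CPM with the empty vector and at 1923, 2388 and 1823 CPM with N642H, again with overlap (log2 fold change 0.29; edgeR, BH-adjusted p = 0.754). Slc3a2, the shared heavy chain of several amino acid transporters, had a log2 fold change of 0.34 (edgeR, BH-adjusted p = 0.244).

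The sequence before the start of Lta and Irf8 was read because, among the called genes that the study names or that belong to the largest changes, these have a promoter window with the letters TTCNNNGAA, the half-site pair that STAT5 dimers are known to bind. The letters are the same on both strands, and no other motif was searched. Windows ran from 250 bases before to 50 bases after the start in the RefSeq table of GRCm38.p6. Of the 27 called genes among those named by the study and the 24 largest changes, 19 had a window and 2 held the letters. Cish, which the study names and which was not called, holds them 2 times. Over all called genes, 16 of the 122 rises with a window (13.1%) and 4 of the 32 falls (12.5%) held them, against 8.96% of the 15879 genes tested that had a window and 8.3% of all 32851 windows in the table. A match is a description of the letters and says nothing about binding. Capitals mark the motif, written 5′ to 3′ along the gene's strand. For Lta, on the minus strand, they begin 152 and 16 bases before the start, shown as short stretches (chr17:35205485-35205513 and chr17:35205352-35205377). For Irf8, on the plus strand (chr8:120736108-120736357), they begin 171 and 153 bases before the start. The start is a choice: the table has a second window for Irf8 (chr8:120738389-120738688), which holds 0 matches in the same search of the letters, and the gene record of Lta runs 227 bases past the start used.
Lta, distal: accatcactcTTCAGGGAAccaggcttcc
Lta, proximal: ccgactccctTTCCCAGAAcgcagta
Irf8: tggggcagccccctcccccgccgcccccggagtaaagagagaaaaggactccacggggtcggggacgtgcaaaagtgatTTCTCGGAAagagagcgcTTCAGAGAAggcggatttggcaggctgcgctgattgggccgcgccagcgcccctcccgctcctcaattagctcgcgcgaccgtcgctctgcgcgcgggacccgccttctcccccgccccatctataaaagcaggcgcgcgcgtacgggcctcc

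The largest rises and falls were taken from called genes that averaged 1 CPM or more and whose groups do not overlap, so the absence of overlap in these 24 genes follows from the choice. The 12 largest rises began from levels of at most 1.42 CPM with the empty vector, which is 0 to 62 reads per library. H19, a maternally expressed imprinted long non-coding RNA, was at 0.567, 0.289 and 0.371 CPM with the empty vector and at 103, 110 and 61.7 CPM with N642H. The log2 fold change was 7.82 ± 0.69 (SE; edgeR, BH-adjusted p = 9.8e-05). Il9 encodes a cytokine of helper T cells and mast cells. It had 2, 3 and 4 reads with the empty vector and 236, 278 and 261 reads with N642H, or 12.6, 7.98 and 5.19 CPM, a log2 fold change of 6.88 ± 0.82 (SE; edgeR, BH-adjusted p = 0.000759). Myh11, the smooth muscle myosin heavy chain, was at 1.42, 1.38 and 0.948 CPM with the empty vector and at 86.1, 92.5 and 23.5 CPM with N642H. N642H replicate 3 is lower than the others, and the log2 fold change was 5.76 ± 0.70 (SE; edgeR, BH-adjusted p = 0.000759). Oxtr, the oxytocin receptor, went from at most 0.0824 CPM to 5.89, 5.02 and 2.71 CPM, a log2 fold change of 6.11 ± 0.68 (SE; edgeR, BH-adjusted p = 0.000421).

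The other 8 of these rises had log2 fold changes from 4.85 to 6.19. They were Gm4926 (6.19), the secreted matricellular factor Ctgf (5.73), Dppa1 (5.66), Cuzd1 (5.57), Trim71 (5.55), Tmem125 (5.49), 2900011O08Rik (5.24) and the p53 relative Trp73 (4.85). Trim71, an RNA-binding protein of early development, was at 9.21, 14.3 and 1.39 CPM with N642H against at most 0.283 CPM with the empty vector. In each of these 8 genes N642H replicate 3 held the lowest value of the N642H group. Gm4926 and Dppa1 lie side by side on chromosome 11, and how the counting divided reads between them was not tested. Cuzd1 rests on 102, 100 and 22 reads with N642H and lost the call without any library other than N642H replicate 3, with a BH-adjusted p from edgeR of up to 0.180. Its log2 fold change ran from 4.77 to 7.67 when 1 library was left out. Trim71 and Trp73 lost the call without empty-vector replicate 2, at BH-adjusted p of 0.0770 and 0.0605 from edgeR.

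The 12 largest falls were smaller in size, from -1.48 to -2.65 on the log2 scale. Itgb3, the integrin beta 3 subunit, was at 136, 206 and 129 CPM with the empty vector and at 35.5, 53.2 and 64.5 CPM with N642H. It fell by 1.62 ± 0.29 (SE; edgeR, BH-adjusted p = 0.00911). Igfbp4, which binds insulin-like growth factors and is a marker of naive T cells, was at 404, 657 and 337 CPM with the empty vector and at 141, 172 and 163 CPM with N642H. It fell by 1.56 ± 0.29 between the groups (SE; edgeR, BH-adjusted p = 0.0108), and all N642H libraries lie below all empty-vector libraries. Rasgrp2, an exchange factor for the GTPase Rap1, was at 27.3, 52.5 and 20.7 CPM with the empty vector and at 7.87, 10.6 and 8.1 CPM with N642H (log2 fold change -1.92 ± 0.39, SE; edgeR, BH-adjusted p = 0.0191). Rap1gap2, which acts on the same GTPase in the other direction, fell by 2.13, and Sytl2, a vesicle transport protein, fell by 2.44. Both were low, with at most 6.41 CPM for Rap1gap2 and 22.4 CPM for Sytl2.

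The other falls were Pydc3 (-2.65), Ms4a4c (-1.84), Pyhin1 (-1.77), 9930111J21Rik1 (-1.60), Gm4759 (-1.58), the magnesium channel Trpm6 (-1.54) and the helicase Ddx60 (-1.48). Pydc3 and Pyhin1 belong to the interferon-inducible PYHIN family and lie together on chromosome 1. Pyhin1 was at 16, 16.3 and 19.1 CPM with the empty vector and at 3.38, 5.48 and 6.07 CPM with N642H (log2 fold change -1.77 ± 0.28, SE; edgeR, BH-adjusted p = 0.00495). Pydc3, Ms4a4c and Gm4759 have close relatives beside them, and how reads were shared among relatives was not tested. Pyhin1 and 9930111J21Rik1 held their call whichever of the 6 libraries was left out. The other 10 of the 12 lost it without empty-vector replicate 2 and without N642H replicate 1, with the highest BH-adjusted p from edgeR between 0.0736 for Itgb3 and 0.238 for Pydc3. Pydc3 and Ddx60 also lost it with the compared groups alone. When 1 library was left out, the log2 fold change ran from -3.64 to -2.2 for Pydc3. It ran from -3.17 to -2.03 for Sytl2 and from -2.47 to -1.58 for Ms4a4c. In bulk RNA, fewer cells that express a gene and less RNA per cell cannot be told apart, and this holds for all levels given here.

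**Figure D2:**
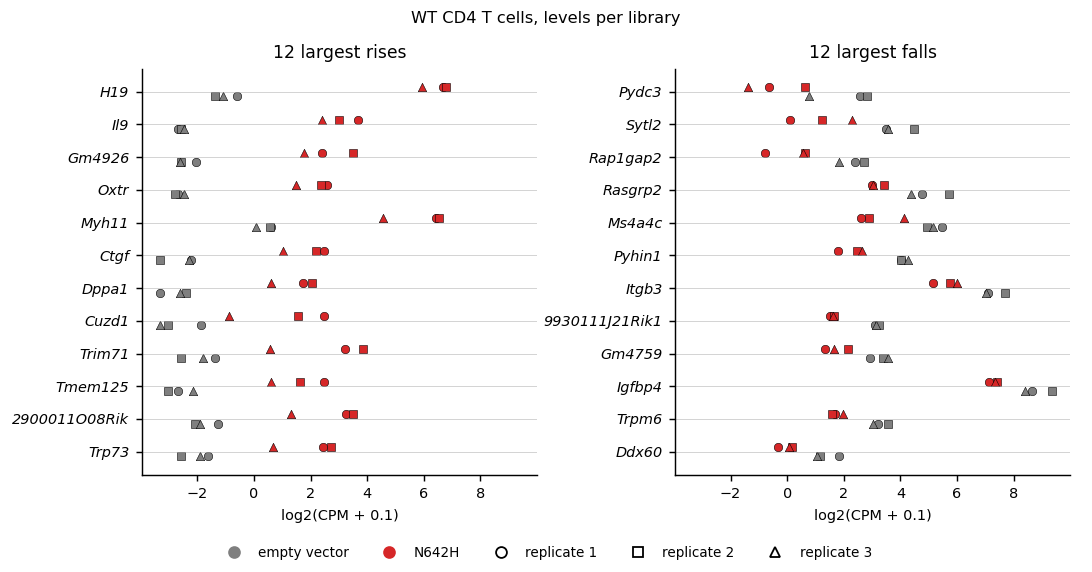
Levels in each of the 6 libraries, as log2 of CPM plus 0.1, for the 12 genes with the largest rise (left) and the 12 with the largest fall (right). Red points are N642H and grey points the empty vector, the marker shape gives the replicate number, and genes were taken only from called genes that averaged 1 CPM or more and whose groups do not overlap.

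Lists of genes by role place these changes in T cell biology. Over all genes tested, 0.790% rose and 0.195% fell without the block, and 2.00% rose and 0.595% fell with it. Of 11 genes of the JAK-STAT core, Stat5b rose, and the list had a median log2 fold change of -0.10. Of 24 inhibitors of the pathway 0 passed without the block (edgeR; median -0.02). Socs3, an inhibitor of JAK kinases, was at 30.6, 40.2 and 20.3 CPM with the empty vector and at 98.6, 71.7 and 31 CPM with N642H, and the groups overlap at N642H replicate 3. Its log2 fold change was 1.14 (edgeR, BH-adjusted p = 0.227), and with the block it rose by 1.06 (edgeR, BH-adjusted p = 0.000118). Without N642H replicate 3 it passed at 1.49. Socs1 was at 103, 196 and 83.5 CPM with the empty vector and at 153, 179 and 114 CPM with N642H (log2 fold change 0.22; edgeR, BH-adjusted p = 0.914). The phosphatase Ptprc, better known as CD45, had a log2 fold change of -0.45 and Spred1, an inhibitor of Ras signalling, one of 0.55, both without a call.

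None of the listed receptors for cytokines passed the test without the block, against 202 of all 20509 genes tested. At so low a share, 0 calls in lists of 10 and 30 genes set these receptors apart in no way. Of 10 receptors of the common gamma-chain group 0 passed (edgeR; median -0.15), with Il2rg at a log2 fold change of -0.39 and Il9r at -1.04 (edgeR, BH-adjusted p = 0.202). Of 30 other cytokine receptors 0 passed (edgeR; median -0.16). Il12rb1, a subunit of the IL-12 and IL-23 receptors, was at 45.4, 42.3 and 43.5 CPM with the empty vector and at 95, 83.3 and 77 CPM with N642H. The groups are apart and the BH-adjusted p from edgeR was 0.00421, but the log2 fold change of 0.96 stayed under the minimum. Without N642H replicate 3 it passed, with a log2 fold change of 1.03. Tgfbr2, a receptor for TGF-beta, had a log2 fold change of -0.58 (edgeR, BH-adjusted p = 0.0157), also under the minimum. With the block, Il12rb2 (1.19) and Il18r1 (1.18) rose and Il6st (-1.06) fell on the log2 scale.

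Cytokine genes had a median log2 fold change of 0.41, against -0.04 over all genes tested, and 21 of the 30 had a positive one, as did 9164 of the 20509 genes tested. Without the block Il9 alone passed. With the block 8 of the 30 rose, against 2.00% of all genes tested, Il9 with Il3, Il4, Il17f, Il24, Ifng, Csf2 and Lif, and Csf1 fell. Among these, Lif, a cytokine of the IL-6 family, had a mean of 202 CPM over the 6 libraries and a log2 fold change of 1.10 without the block (edgeR, BH-adjusted p = 0.15) and 1.05 with it (edgeR, BH-adjusted p = 3.24e-06). Il3, a growth factor of blood progenitors and mast cells, had a mean of 29.6 CPM and a log2 fold change of 2.99 (edgeR, BH-adjusted p = 0.123; 1.3e-07 with the block). Il4, Il17f and Ifng, the signature cytokines of separate helper lineages, had means of 1.74, 0.713 and 0.512 CPM and log2 fold changes of 2.22, 1.52 and 2.08. These genes were named after their values were seen.

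Of 17 TNF superfamily ligands, Lta and Tnfsf4 rose (median -0.09). Tnfsf4 encodes OX40 ligand, which stimulates T cells, and was at 29.7, 29.6 and 32 CPM with the empty vector and at 69.8, 64.8 and 55.7 CPM with N642H. The groups do not overlap, with a log2 fold change of 1.06 ± 0.17 (SE; edgeR, BH-adjusted p = 0.00421) that was 0.99 without N642H replicate 1. Of 20 TNF receptors 0 passed without the block (edgeR; median -0.09), and Tnfrsf8 and Tnfrsf13b rose with it. Tnfrsf13b, a receptor for BAFF and APRIL, was at 19.3, 22.1 and 16.3 CPM with the empty vector and at 62.6, 53.1 and 25.9 CPM with N642H (log2 fold change 1.29; edgeR, BH-adjusted p = 0.0517; 2.66e-06 with the block). Cd27, a costimulatory receptor, had a log2 fold change of -0.85 (edgeR, BH-adjusted p = 0.0427), under the minimum. Without N642H replicate 3 both passed, with log2 fold changes of 1.59 for Tnfrsf13b and -1.01 for Cd27.

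Genes of naive and circulating T cells were next. Of 28 naive and quiescence genes 3 fell and 0 rose (edgeR; over all genes tested 0.195% and 0.790%), with a median log2 fold change of -0.48, and with the block Klf2 and Klf3 were among those that fell as well and Ly6c1 rose. Those that fell without the block were Igfbp4, Dapl1 and S1pr1. S1pr1, the receptor by which lymphocytes leave lymph nodes, was at 77.9, 111 and 52.7 CPM with the empty vector and at 41.6, 39.7 and 29.6 CPM with N642H. Its groups are apart, and it fell by 1.13 ± 0.25 (SE; edgeR, BH-adjusted p = 0.0341). Dapl1 was at 129, 150 and 88 CPM with the empty vector and at 35.8, 47.6 and 59.1 CPM with N642H, and it fell by 1.36 ± 0.20 (SE; edgeR, BH-adjusted p = 0.00281). S1pr1 lost its call without any library other than empty-vector replicate 3, with an adjusted p of up to 0.216, and with the compared groups alone, while Dapl1 held it in each case. Of 28 chemokine receptors and homing genes S1pr1 alone passed (median -0.42). With the block Cx3cr1 rose, and Cxcr6 and S1pr4 were among those that fell. Of 15 chemokine ligands Ccl3 rose (median 0.01), and with the block Ccl4 and Cxcl3 did too. Ccl3 draws monocytes and T cells and was at 8.84, 7.3 and 13.9 CPM with the empty vector and at 34.5, 25.3 and 50.8 CPM with N642H (log2 fold change 1.88 ± 0.27, SE; edgeR, BH-adjusted p = 0.00262), with no overlap and a call that no left-out library ended.

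Among 36 transcription factors of helper lineages Irf8 alone passed without the block (median 0.21). With it Tbx21, Foxp3, Bcl6 and Batf3 rose and Ahr fell. Tbx21, Foxp3 and Bcl6 are the lineage factors of type 1 helper, regulatory and follicular helper cells, and Batf3 is a factor of the AP-1 family. Their log2 fold changes without the block, where none of them passed, were 1.41 for Tbx21, 1.70 for Foxp3, 0.98 for Bcl6 and 2.95 for Batf3. The Bcl6 groups overlap (edgeR, BH-adjusted p = 0.251 without the block). Bcl6 passed, at 1.49, when empty-vector replicate 3 was left out. Of 22 regulatory T cell genes Gpr83 rose (median 0.03). This receptor gene was at 8.11, 8.63 and 9.85 CPM with the empty vector and at 16.7, 20.4 and 25.9 CPM with N642H (log2 fold change 1.25 ± 0.24, SE; edgeR, BH-adjusted p = 0.013). Its adjusted p reached 0.0918 when empty-vector replicate 1 or 2 was left out, which ended the call. Of 17 follicular helper genes 0 passed without the block (edgeR; median -0.24), and with it Bcl6 rose and Il6st and Pou2af1 fell. Of 25 cytotoxic granule and killer receptor genes 0 passed without the block (edgeR; median -0.21). With it Prf1, which encodes perforin, and Slamf7 rose, the latter with a log2 fold change of 1.51 (edgeR, BH-adjusted p = 0.000983; 0.293 without the block). Slamf7 was at 3, 0.801 and 1.05 CPM with the empty vector and at 8.84, 3.82 and 1.79 CPM with N642H, with overlap.

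Of 21 checkpoint and costimulatory receptors Cd80 rose and Cd96 fell (median -0.21), and with the block Cd160 fell as well. Cd80, a ligand of CD28 and CTLA4, was at 47.6, 47.3 and 33.7 CPM with the empty vector and at 97.8, 92.6 and 76 CPM with N642H (log2 fold change 1.05 ± 0.24, SE; edgeR, BH-adjusted p = 0.0357). Cd96, an inhibitory receptor of T and natural killer cells, was at 43.6, 49.4 and 49.8 CPM with the empty vector and at 15.9, 19.8 and 31.4 CPM with N642H (log2 fold change -1.08 ± 0.23, SE; edgeR, BH-adjusted p = 0.0223). Neither gene overlaps between groups, and both lost the call without any library other than N642H replicate 3, with an adjusted p of up to 0.176 for Cd80 and 0.157 for Cd96. Cd96 also lost it in the fit over both backgrounds (log2 fold change -1.10; edgeR, BH-adjusted p = 0.0759). Of 38 genes of antigen receptor signalling 0 passed in either fit (edgeR; median -0.18), with Sla2 at a log2 fold change of -0.57.

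Among the growth genes, 2 rose without the block. Of 24 genes of PIM kinases, Myc and D cyclins, Cdkn1a and Mxi1 rose (median -0.01), and Mycl did with the block. Cdkn1a encodes the cyclin-dependent kinase inhibitor p21 and was at 36.5, 58.6 and 86.7 CPM with the empty vector and at 202, 163 and 210 CPM with N642H. The groups are apart, and the log2 fold change was 1.66 ± 0.30 (SE; edgeR, BH-adjusted p = 0.0103). Mxi1, an antagonist of MYC, was at 59.5, 44.6 and 41 CPM with the empty vector and at 201, 146 and 74.3 CPM with N642H (log2 fold change 1.54 ± 0.37, SE; edgeR, BH-adjusted p = 0.0488). Cdkn1a lost the call without empty-vector replicate 1 or 2 or N642H replicate 1, where the adjusted p reached 0.0776, and Mxi1 without any library other than N642H replicate 3, with one of up to 0.308, and also with RLE factors and with filterByExpr. Of 36 cell cycle and replication genes 0 passed in either fit (edgeR), with log2 fold changes from -0.34 for Tyms to 0.16 and a median of -0.11. Of 26 survival and death genes 0 passed without the block (edgeR; median -0.07), with the survival gene Bcl2l1 at 0.38, and with the block Bcl2l11, which encodes the death-promoting BIM, fell.

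The metabolic lists had small positive medians. Over all genes tested the median log2 fold change was -0.04, and over the 11375 that averaged 1 CPM or more it was 0.01. Of 27 glycolysis and hypoxia genes 24 had a positive log2 fold change (9164 of the 20509 genes tested), with a median of 0.24, and Mxi1, which is also on this list, was the member that passed. With the block Egln3 and P4ha2 rose, and Egln3, an oxygen-sensing hydroxylase with a mean of 223 CPM, had a log2 fold change of 2.29 (edgeR, BH-adjusted p = 0.0674; 5.88e-09 with the block). Of 16 amino acid and nutrient transporters 0 passed in either fit (edgeR), with a median of 0.29 and Slc1a4 at 0.74. Of 28 cholesterol and fatty acid synthesis genes 0 passed in either fit (edgeR), with a median of 0.06 and Stard4 at 0.41 and Pmvk at 0.24.

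The lists of interferon-linked genes had negative medians. Of 27 genes of the type I interferon response Ddx58 fell (0.195% of all genes tested fell), with a median log2 fold change of -0.67, and Rtp4 fell with the block. Ddx58 encodes the RNA sensor RIG-I and was at 33, 34.8 and 24.1 CPM with the empty vector and at 13.9, 16.1 and 14 CPM with N642H. The groups are apart, and it fell by 1.06 ± 0.16 (SE; edgeR, BH-adjusted p = 0.00328), by 0.95 without empty-vector replicate 2. Of 17 guanylate-binding proteins and related GTPases Gbp8, Gbp9, Tgtp1 and Tgtp2 fell and 0 rose (edgeR; median -0.54), against 0.195% and 0.790% of all genes tested. Gbp9 was at 12.6, 11.9 and 13.4 CPM with the empty vector and at 3.64, 5.42 and 6.45 CPM with N642H, and it fell by 1.27 ± 0.22 (SE; edgeR, BH-adjusted p = 0.00755). Tgtp1 (-1.35), Tgtp2 (-1.20) and Gbp8 (-1.01) did not overlap between groups either. They lost the call without empty-vector replicate 1 or 2 or N642H replicate 1 or 2, and Gbp8 also without empty-vector replicate 3, with its adjusted p at up to 0.168 over the 6 libraries. In the fit over both backgrounds Tgtp1, Tgtp2 and Gbp8 lost it too, at BH-adjusted p of 0.191, 0.246 and 0.0614 from edgeR. Their log2 fold changes there were -1.36, -1.21 and -1.03, and Gbp9 kept its call. Gbp8 with Gbp9 and Tgtp1 with Tgtp2 are close relatives, and how reads were shared between them was not tested. Of the 9 genes of the Akr1c cluster 0 passed in either fit (edgeR; median -0.39), and Akr1c18 was at 14.8, 19.5 and 52 CPM with the empty vector and at 28.5, 29.3 and 67.2 CPM with N642H, with overlap.

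**Figure D3:**
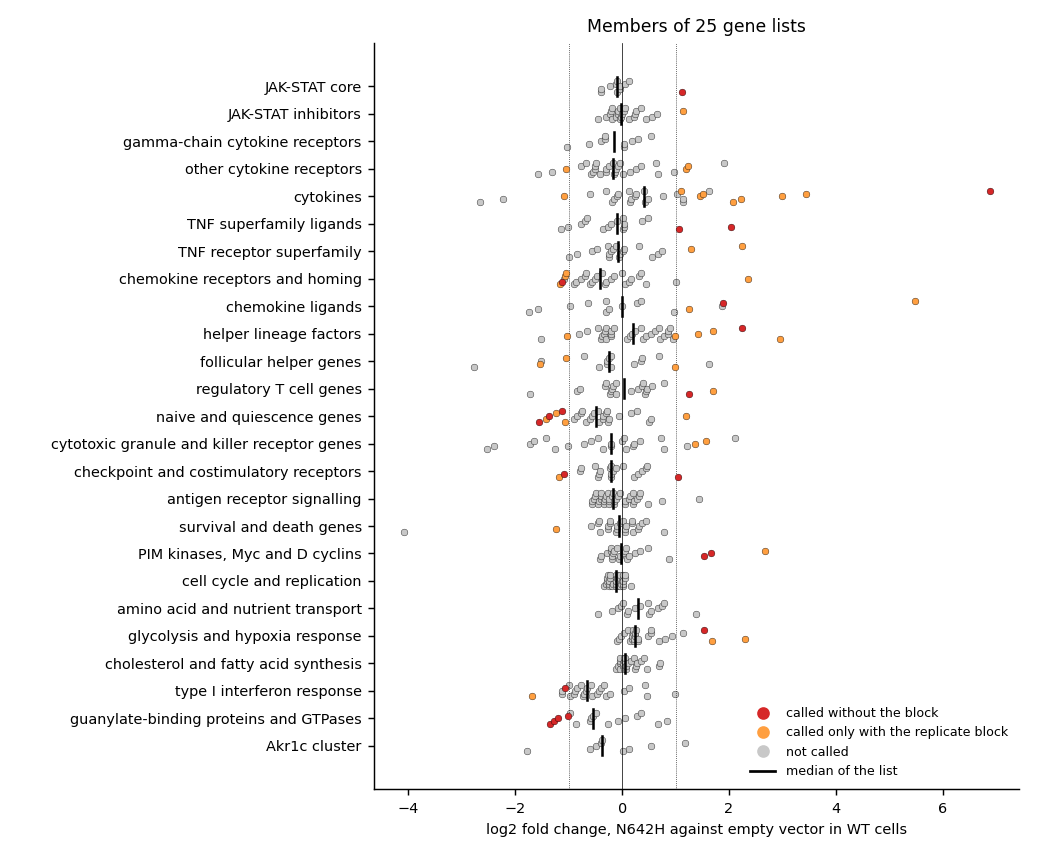
Log2 fold change of N642H against the empty vector, without the block, for each tested member of the gene lists, 1 point per gene and 1 line of points per list. Red points passed without the block, orange points only with it, black bars are list medians and dotted lines mark a log2 fold change of 1 in either direction. The marker lists and the genes the study names are not drawn. Among the lists drawn, the type I interferon list has the lowest median, at -0.67, and the cytokine list the highest, at 0.41.

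The same cells with unmutated STAT5B show what the N642H construct does beyond added STAT5B. In the direct test Nrp2 alone was called, 0.00488% of the genes tested, and it was higher with N642H. Nrp2, a receptor for semaphorins and VEGF, was at 0.946, 1.21 and 0.525 CPM with STAT5B and at 7.07, 8.09 and 5.43 CPM with N642H. The groups are far apart, and the log2 fold change was 2.95 ± 0.38 (SE; edgeR, BH-adjusted p = 0.0197). With the empty vector Nrp2 was at 0.567, 0.178 and 0.515 CPM. With the block 94 genes were higher with N642H than with STAT5B (0.458%) and 0 lower (edgeR). At an unadjusted p under 0.05 there were 526 genes without the block and 1343 with it, and DESeq2 called 24. The count was 10 without N642H replicate 3, and Nrp2 lost the call when any of the other 5 libraries was left out.

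The same N642H libraries enter the tests against the empty vector and against STAT5B, and genes chosen for high N642H values are favoured in both, so the values below are a description. H19 was at 30.5, 23.8 and 6.56 CPM with STAT5B, between its levels with the empty vector and with N642H in each replicate number (N642H minus STAT5B 2.17; edgeR, BH-adjusted p = 0.476; 6.98e-05 with the block). Il9 was at 0.831, 0.543 and 0.0778 CPM with STAT5B (N642H minus STAT5B 4.16; edgeR, BH-adjusted p = 0.123; 1.59e-06 with the block). Lta was at 422, 483 and 182 CPM with STAT5B (N642H minus STAT5B 1.03; edgeR, BH-adjusted p = 1; 1.56e-05 with the block). Irf8 was at 103, 88 and 39 CPM with STAT5B, and its difference of 1.19 also passed with the block alone (edgeR, BH-adjusted p = 0.000256). None of the 12 largest falls was called against STAT5B in either fit. With the block, Ms4a4c (-0.92), 9930111J21Rik1 (-0.74) and Gm4759 (-0.99) had BH-adjusted p of 0.0344, 0.0417 and 0.0472 from edgeR and missed the fold-change minimum. Itgb3 was at 71, 91 and 83.1 CPM with STAT5B (N642H minus STAT5B -0.67; edgeR, BH-adjusted p = 1; 0.0517 with the block).

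The direct test against Y665F, the other activating construct, called 0 of 20509 genes (0%) in edgeR with and without the block. DESeq2 called 0 as well, and 456 genes had an unadjusted p under 0.05, or 1472 with the block. H19 was at 112, 109 and 99.5 CPM with Y665F, Lta at 927, 827 and 402 CPM and Irf8 at 184, 131 and 88.5 CPM, each overlapping the N642H libraries. Il9 was at 4.31, 4.27 and 1.53 CPM with Y665F against 12.6, 7.98 and 5.19 CPM with N642H, a difference of 1.35 on the log2 scale that did not pass (edgeR, BH-adjusted p = 1). Igfbp4 was at 93.3, 136 and 196 CPM with Y665F, which spans the N642H values. A p that misses the threshold does not show that the constructs act alike.

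**Figure D4:**
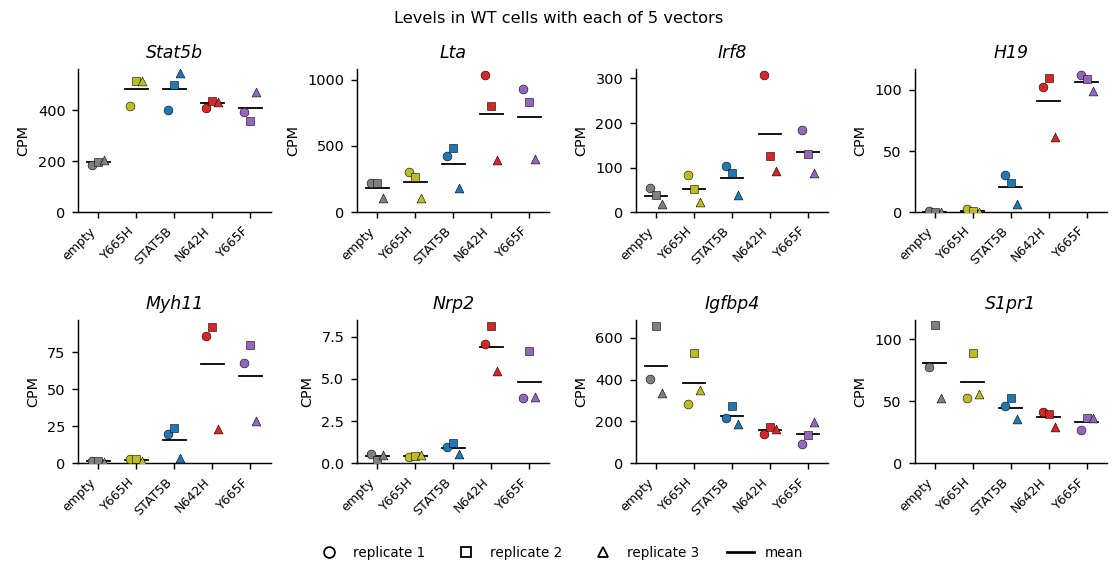
CPM of 8 genes in the 15 WT libraries by vector, on linear axes from 0, with a bar at each group's mean and the marker shape as replicate number. For H19 and Nrp2 the STAT5B libraries lie below all N642H libraries, and for Stat5b the libraries of STAT5B and N642H overlap.

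The last comparison asked whether the response to N642H depends on endogenous STAT5, by testing the response in WT cells minus that in Stat5a/b-null cells over all 30 CD4+ libraries. It called 75 of 21975 genes (0.341%), and the log2 difference, WT response minus null response, was below 0 for 66 and above 0 for 9. The sign is that of the difference and not of the size of a response: Itgb3, with -1.64 in WT and 0.47 in null cells, is among the 66, and Bcl6, with 0.97 and -2.35, among the 9. With the block the count was 185 (0.842%), with 74 genes shared, and without WT empty-vector replicate 2 it was 45. The block in this fit treats the same number in WT and null cells as 1 unit. The pairing of numbers was examined only among the WT libraries, so for null cells it is assumed. In the same fit N642H changed 262 genes in WT cells and 505 in null cells, and the 88 called in both are 33.6% of the former and 17.4% of the latter. Of the 75 genes, 58 were called in null cells, where 55 of them rose. Both responses here enter the tested difference, so they are given side by side with it.

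Socs2, Cish and Socs1, 3 of the 24 listed pathway inhibitors, and the IL-2 receptor subunit Il2ra were called with a smaller response in WT cells. Socs3 (-1.05; edgeR, BH-adjusted p = 0.626) and the other subunits Il2rb (-0.63; 0.588) and Il2rg (-0.20; 0.74) were not called. Socs2 was at 2.86, 5.45 and 7.25 CPM in null cells with the empty vector and at 305, 330 and 238 CPM in null cells with N642H, which overlaps its WT level with the empty vector of 300, 336 and 197 CPM on this scale. The difference of the responses was -5.19 ± 0.42 (SE, log2; edgeR, BH-adjusted p = 1.9e-08). For Cish it was -3.65 (edgeR, BH-adjusted p = 3.84e-06), for Socs1 -2.63 (edgeR, BH-adjusted p = 0.0039) and for Il2ra -2.71 (edgeR, BH-adjusted p = 1.73e-05). Il2ra was at 154, 191 and 268 CPM in null cells with the empty vector and at 1695, 1818 and 1333 CPM with N642H there. Nav1 (-6.09), 6430571L13Rik (-4.76), Gm13546 (-2.48) and Akr1c18 (-5.54) also had a smaller response in WT cells. For Stat5b itself the difference was -4.11, which follows from the design and is no result about the response. With the empty vector, WT cells held their own transcript at 187, 209 and 207 CPM, and null cells were at 2.78, 5.3 and 9.49 CPM. Lta had a response of 2.01 in WT and 4.36 in null cells, a difference of -2.35 that passed with the block alone (edgeR, BH-adjusted p = 0.00109; 0.0872 without it).

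Of the 75 genes, Igfbp4 and Ifit1bl1 alone were called in both backgrounds with opposite signs. Igfbp4 fell by 1.58 in WT cells and rose by 1.87 in null cells, where it was at 23, 46.2 and 25.5 CPM with the empty vector and at 112, 136 and 98.9 CPM with N642H. The N642H libraries of both backgrounds thus lie between the empty-vector libraries of null and WT cells (difference -3.45 ± 0.47, SE; edgeR, BH-adjusted p = 9.18e-05). Itgb3, Rasgrp2 and Ddx58 fell in WT cells, by 1.64, 1.94 and 1.08 on the log2 scale in this fit, and had responses of 0.47, 0.27 and 0.20 in null cells that were not called. Bcl6, the lineage factor of follicular helper cells, had a difference of 3.32 ± 0.43 (SE; edgeR, BH-adjusted p = 4.56e-05). It fell in null cells from 25.9, 34.7 and 36.6 CPM to 5.85, 6.45 and 6.72 CPM, and was at 3.29, 3.33 and 7.49 CPM in WT cells with the empty vector and at 11.4, 10.3 and 6.19 CPM with N642H.

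Cd24a and Dnaaf3 were called in WT cells and had a larger response there. Cd24a, a surface glycoprotein of early lymphocytes, was at 2.55, 2.42 and 2.36 CPM in WT cells with the empty vector and at 56, 54.8 and 11.6 CPM with N642H. In null cells it was at 8.96, 7.45 and 9.77 CPM with the empty vector and at 12.9, 10.8 and 11.1 CPM with N642H. The difference of the responses was 3.64 ± 0.66 (SE; edgeR, BH-adjusted p = 0.00443). Dnaaf3 had a difference of 2.44, and its neighbour Tnni3 also rose in WT cells (log2 fold change 2.27). Which of these neighbours the reads belong to was not tested. For the 12 largest rises in WT cells the difference was called for none (edgeR, smallest BH-adjusted p 0.405, for Cuzd1), and it ranged from -2.88 for Il9 to 3.90 for Cuzd1. Il9 was at 0 CPM in all null libraries with the empty vector, so its null response and this difference depend on the prior count of edgeR and are no measured size. The same holds for Dppa1 and Tmem125. H19 had responses of 7.81 ± 0.99 in WT and 7.61 ± 1.24 in null cells (SE). A missing call does not show that the responses are equal.

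**Figure D5:**
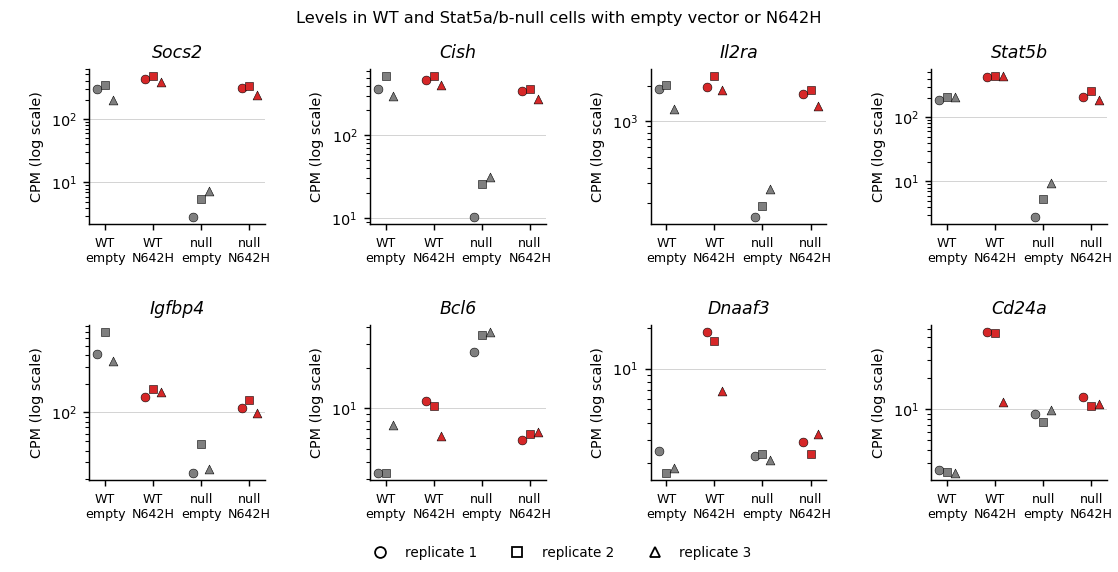
CPM on a log axis for 8 genes in WT and Stat5a/b-null cells, grey for the empty vector and red for N642H, with 3 libraries per group and the marker shape as replicate number. Socs2, Cish, Il2ra and Stat5b are far lower in null cells with the empty vector than in the other groups, and Igfbp4 moves in opposite directions in the backgrounds.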

How the data were processed

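RNA-seq of mouse CD4+ T cells was analysed. The authors trimmed reads with Trimmomatic 0.36, aligned them with STAR to mm10 and counted them per gene symbol with HTSeq 0.9.1, and the deposited files hold raw counts without normalization for 24421 genes. The 5 lines for reads without a gene were left out. Gene reads per library ranged from 18825994 to 48951215 in the 6 libraries compared, and counting error limits genes with few reads.

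The tests used edgeR 4.0.16 in R 4.3.3 (TMM factors, genes with at least 10 reads over the fit, glmQLFit and glmQLFTest). P-values were adjusted over all genes of the fit by the Benjamini-Hochberg (BH) method, and a call required both an adjusted p under 0.05 and more than 1 log2 unit of change. As edgeR gives no standard error (SE) for these tests, each SE printed was derived as the size of the log2 fold change over the square root of the F statistic. The fold change includes a prior count and F does not, so the SE is approximate, and it is unreliable for changes near 0 or genes with few reads. The 15 WT libraries shared 1 fit, and the 30 CD4+ libraries another for the interaction. Stat5b and Stat5a were also compared by exact two-sided permutation tests on log2 of CPM plus 1, 3 against 3. Figures used matplotlib 3.10.9. The pipeline was tested on simulated data.

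Replicate numbers count as pairs where all 3 same-number pairs of the comparison correlate above 0.1. The correlations and the calls of both fits were first seen together in the same run. The members and lists were chosen with earlier results of these data known. Genes named are those the study names, the 12 largest rises and 12 largest falls whose mean reached 1 CPM and whose groups did not overlap, up to 6 called members of each list (else the 2 with the smallest adjusted p), Cish, Socs1 to Socs3, Stat5a and Stat5b, and up to 6 called genes in each direction of the other comparisons.

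Alternatives were the replicate block, RLE factors, DESeq2 1.42.0, filterByExpr, no count filter, the compared groups alone, no fold-change minimum, a RUVr factor, and each library left out in turn. The other 31 files of the series were not analysed here.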

Additional observations from a re-analysis of the deposited data

Results flagged for a closer look

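The test of the difference between the responses to N642H in WT and in Stat5a/b-null cells, an interaction contrast in edgeR, singled out 75 genes. Their difference is the log2 response in WT cells minus that in null cells, and its sign does not say in which cells the response was larger. It was above 0 for 9 of them. The 6 of these with the smallest adjusted p were Bcl6, with a log2 difference of 3.32, Dnaaf3 with 2.44, Cd24a with 3.64, Pkhd1l1 with 2.32, Ctsf with 2.20 and Sox4 with 1.83. Pkhd1l1 and Ctsf were called as falls in null cells, and Pkhd1l1, Ctsf and Sox4 were not called in WT cells, where their log2 fold changes were 0.87, 0.70 and 0.83. It was below 0 for 66 genes, and the 6 with the smallest adjusted p were Socs2, with a log2 difference of -5.19, Gm13546 with -2.48, Stat5b with -4.11, Nav1 with -6.09, Cish with -3.65 and 6430571L13Rik with -4.76. All 12 kept the call with the replicate block. That of Stat5b follows from the design, since WT cells hold their own transcript before the vector adds to it. What underlies the other differences was not tested.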

How the results depend on the processing

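The 202 genes called against the empty vector became 532 with the replicate block, 347 with DESeq2, 425 with a RUVr factor and 312 without a fold-change minimum, and all 202 were among the calls in each. Leaving out 1 of the 6 libraries gave 70 to 350. RLE factors (195), filterByExpr (205), no count filter (223) and the compared groups alone (177) stayed within 1.5 times, and shared 195, 197, 199 and 150 of the 202. Chosen after seeing the data, leaving out a replicate number from all vectors gave 0 (edgeR; 1095 genes at an unadjusted p under 0.05) to 567, and a fit over both backgrounds 262. With 1 replicate number left out, each group holds 2 libraries.

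Against STAT5B, the 1 gene became 94 with the replicate block, 24 with DESeq2, 22 with a RUVr factor, 2 without a count filter and 0 with the compared groups alone, and 0 to 10 when a library was left out. Against Y665F the count was 0 in every setting. The 75 genes whose response differs between backgrounds became 185 with the replicate block, 171 with DESeq2, 124 with a RUVr factor and, chosen after seeing the data, 346 with a replicate block within each background. Leaving out a library gave 45 to 109.

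Of 44 named genes that were called, 18 kept the call in all of the up to 13 settings named in the processing, 26 lost it when 1 of the 6 libraries was left out and 5 in another of those settings. None of the 44 kept it in all settings, since 0 genes pass without replicate 2 of all vectors. Of 50 not called, 7 passed with the replicate block, among them Socs3 (1.06). Signs reversed only for genes not called, in settings that left out libraries: Klri2 (-3.54 to 0.99, 0.61 without empty-vector replicate 1), Socs1 (-0.02 to 0.68), Stat5a (-0.14 to 0.02), Nav1 (-0.03 to 0.38) and 6430571L13Rik (-0.67 to 0.06). The causes were not tested. Voom, other block models and other annotations were not run.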

Other observations

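Some genes that changed with N642H in WT cells lay beside each other on the chromosome. Of the 162 rises, 20 (12.3%) had a neighbouring tested gene that rose too, against 1.57% of all 20453 genes with a position that had a risen neighbour. H19 and Igf2, neighbours at an imprinted locus, rose together, with Igf2 at a log2 fold change of 5.12. So did Fes and Furin, Muc1 and Trim46, Slc9a4 and Slc9a2, and Gm4926 and Dppa1. Of the 40 falls, 11 (27.5%) had a neighbour that fell, against 0.381% of all genes with a position. These were Pyhin1 and Pydc3, Ms4a4c and Ms4a4b, Gbp8, Gbp9 and Abcg3, Gm4759 and Gm1966, and 9930111J21Rik1 and Tgtp1. Several are members of 1 gene family that lie side by side, and how much of this comes from reads shared between relatives or overlapping genes was not tested. The neighbours were looked at after the calls were known.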
